A study of Mus musculus with 36 samples.

Results

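The genes described here encode the subunits of the proteasome and its activators. They were chosen by name alone, as the rows whose symbol was Psma, Psmb, Psmc, Psmd or Psme followed by a number, which gave 43 of the 20719 genes listed for these hearts after spike-ins and mitochondrial genes were set aside. By role they were 8 alpha-ring subunits, 4 structural and 3 constitutive catalytic beta subunits, 3 immune beta subunits, 1 thymic beta subunit, 6 ATPases and 11 other subunits of the regulatory cap, 3 cap assembly chaperones and 4 genes of activators. Psmf1 and the Psmg genes, whose names start alike, were not members and were described with assembly partners.

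The hearts were from C57BL/6 mice, males aged 8 weeks, and single cells were taken from the infarcted part of the left ventricle or, in sham hearts, from the matching part. They were read with SORT-seq, in which 1 cell is sorted into each well of a plate and every messenger RNA is tagged at its end with a unique molecular identifier (UMI). Mice had sham surgery and were studied at day 1 (4 plates) or day 14 (8 plates). Others had ischaemia-reperfusion (IR), in which the left anterior descending artery is tied for 1 hour and reopened, at day 1 (9 plates), day 3 (7 plates) or day 14 (3 plates), or a permanent ligation (MI) at day 3 (5 plates). The labels name no transgene or drug in any group. The sham plates were taken at days 1 and 14, so the day 3 groups had no sham of their own day here and were set against sham of both days. The MI plates carried a separate protocol label and held the most UMIs per well, so permanent ligation and the round of work cannot be told apart. The labels did not tie plates to mice, so p-values measured the spread between plates, some of which can share a mouse.

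The proteasome is the barrel-shaped protease that degrades proteins marked with ubiquitin. Rings of alpha subunits gate the barrel, the beta subunits Psmb5, Psmb6 and Psmb7 hold the cutting sites, and the regulatory cap of Psmc ATPases and Psmd subunits binds, unfolds and feeds in the substrate. As background, interferon gamma makes cells build an immunoproteasome. In it, Psmb8, Psmb9 and Psmb10 take the places of Psmb5, Psmb6 and Psmb7, and an activator made of Psme1 and Psme2 can take the place of the cap. This form favours peptides that fit MHC class I. In heart muscle, the turnover of contractile proteins runs through ubiquitin and the proteasome.

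Promoter sequence from RefSeq (GRCm38.p6) was available for 36 of the 43 members, and 3 are shown because their genes carry the exchange of catalytic subunits that the values turn on. Psmb5 and Psmb6 are exchanged for Psmb8 and Psmb9, and Psmb7 for Psmb10. Psmb9 and Psmb7 were not in the table, and the sequence of Psmb8 is not shown. The stretches are the bases of the window before the first annotated exon. Capitals mark the letters TGACNNNGC in Psmb5 and Psmb6, the core of the antioxidant response element that NRF1 and NRF2 bind. Psmb10 had no match to these letters in the window.
Psmb5 (chr14:54618023-54618245, - strand): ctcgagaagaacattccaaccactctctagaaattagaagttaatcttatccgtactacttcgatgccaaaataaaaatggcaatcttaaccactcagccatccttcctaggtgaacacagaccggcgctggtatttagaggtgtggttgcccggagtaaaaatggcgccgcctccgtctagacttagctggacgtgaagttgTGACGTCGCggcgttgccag
Psmb6 (chr11:70525107-70525356, + strand): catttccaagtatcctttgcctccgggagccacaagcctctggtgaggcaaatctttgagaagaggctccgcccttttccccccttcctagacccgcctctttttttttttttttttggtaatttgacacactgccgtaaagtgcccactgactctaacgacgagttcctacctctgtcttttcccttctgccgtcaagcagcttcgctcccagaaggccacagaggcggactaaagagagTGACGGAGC
Psmb10 (chr8:105938445-105938642, - strand): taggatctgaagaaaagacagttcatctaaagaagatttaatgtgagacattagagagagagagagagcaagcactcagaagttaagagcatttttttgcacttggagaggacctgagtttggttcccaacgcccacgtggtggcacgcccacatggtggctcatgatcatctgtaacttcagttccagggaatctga

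Over the 250 bases before the start of each transcript, and on both strands, TGACNNNGC was found in 10.2% of the 32851 windows of all genes and at Psmb5, Psmb6, Psmc6, Psmd9 and Psmd12. In the GENCODE annotation of GRCm38, Psmb8 (chr17:34197721-34201454) and Psmb9 (chr17:34181987-34187764) lie beside Tap1 and Tap2, the peptide transporters of class I loading. The end of Psmb9 that holds its start overlaps the start of Tap1 on the other strand. SORT-seq primers bind the poly-A tail, at the other end of both transcripts.

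Of 13824 wells, 3146 held at least 1000 UMIs outside mitochondrial genes, and 3126 remained after 20 wells were left out. The profile of each of the 20 matched the deeper well of the same number on another plate. They are called copied wells here, though their counts were not the same. The 3126 wells still hold both tables of a sham day 14 plate deposited in duplicate, which counted as 1 in all sums and tests, and 1 IR day 3 plate gave no well. Plates held 176614 to 5551870 UMIs, and the median well of at least 1000 UMIs held 2217 to 3230 UMIs in the sham and IR groups and 13120 in MI. In the remaining wells, both duplicate tables included, members took 176847 UMIs, 0.576% of those counted. Wells were clustered with the members and their partner genes left out, and clusters were named from markers. This gave 1029 cardiomyocyte-like, 499 macrophage-like and 395 endothelial-like wells, with 318 fibroblast-like, 155 neutrophil-like and 21 mural-like ones. Another 673 wells stayed without a name, and the copied wells and the duplicate plate are not in these numbers. UMIs were summed over the wells of a class on a plate where there were at least 5, and levels are given as CPM, the counts per 1000000 UMIs of that sum. Since a transcript is tagged at its end, levels of different genes were not divided by length.

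Summed over all 43 genes, proteasome counts took a larger part of all UMIs in macrophage-like and endothelial-like than in cardiomyocyte-like cells on most shared plates, and a smaller part in neutrophil-like cells. Pooled over plates, members took 6431 CPM in macrophage-like, 6428 in fibroblast-like, 5583 in endothelial-like, 4118 in cardiomyocyte-like and 2945 in neutrophil-like wells. On plates that held both classes, the sum was higher in macrophage-like than in cardiomyocyte-like cells on 11 of 12, and higher in endothelial-like than in cardiomyocyte-like cells on 14 of 17. It was lower in neutrophil-like than in macrophage-like cells on 13 of 13. Fibroblast-like cells were above cardiomyocyte-like cells on 5 of 12 shared plates and below on 7, so that the order of these classes in the pooled values was not seen within plates. Pooled by group, fibroblast-like cells were at 4100 CPM and cardiomyocyte-like cells at 4172 CPM at IR day 3, and at 3000 and 3914 CPM at IR day 14. The 21 mural-like wells had 6728 CPM, and the wells without a name 4549.

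**Figure D1:**
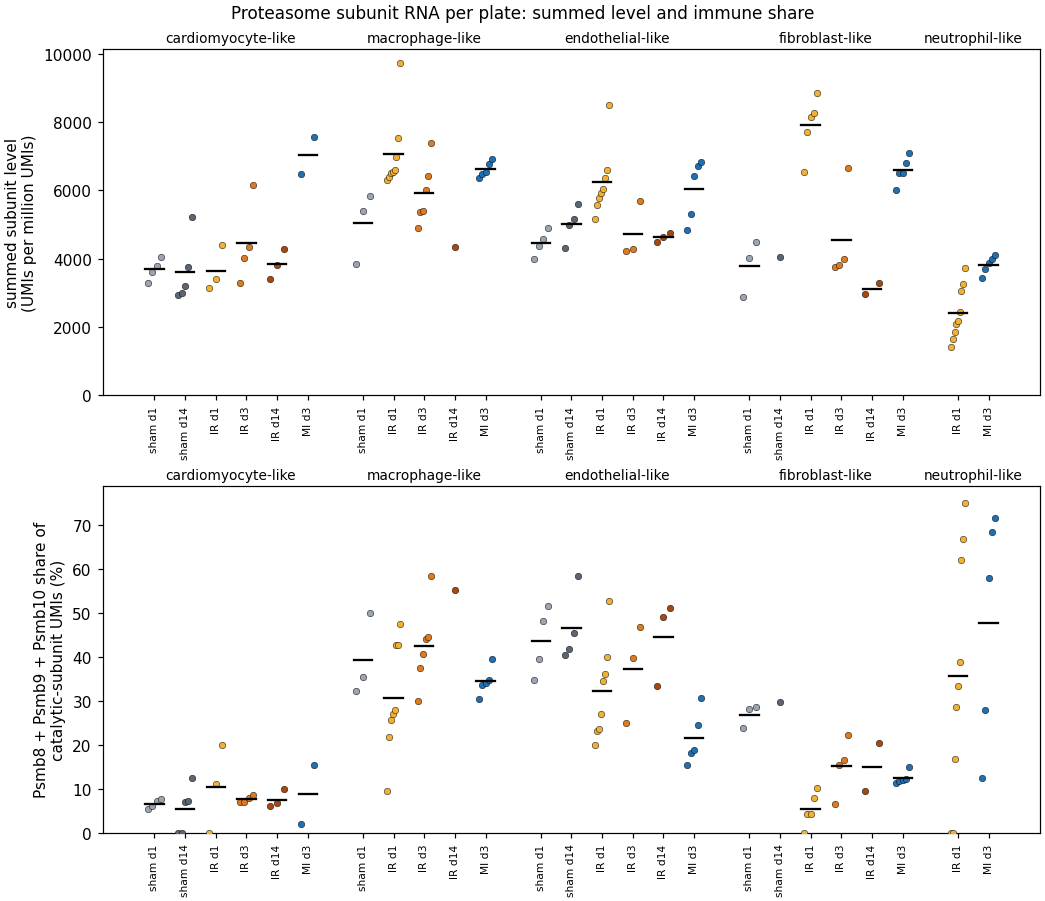
Summed level of the 43 proteasome genes in CPM (top) and immune share in percent (bottom) for each plate, by cell class and group. Each point is the sum of at least 5 wells of a plate and bars mark the mean. The immune share of cardiomyocyte-like sums lies low in every group, and the fibroblast-like sums of IR day 1 join the highest summed levels with the lowest immune shares of that class.

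The classes differed in the kind of catalytic subunit. The immune share is Psmb8, Psmb9 and Psmb10 as a part of those plus Psmb5, Psmb6 and Psmb7. Pooled over the sums of at least 5 wells, it was 7.58% in cardiomyocyte-like cells (exact 95% interval 6.56 to 8.70, from counting error only) and 12.2% in fibroblast-like cells (11.4 to 13.1). Higher shares were found in the other classes, with 31.3% in endothelial-like (29.5 to 33.1), 35.3% in macrophage-like (34.4 to 36.2) and 48.3% in neutrophil-like cells (40.0 to 56.7). The last rested on 71 immune and 76 constitutive UMIs. Of the 733 immune UMIs of fibroblast-like cells, 618 were from MI. By group, their pooled share ran from 6.40% at IR day 1 to 29.6% in sham day 14. In endothelial-like cells it ran from 21.4% in MI to 43.2% in sham day 14. Within plates the share was higher in macrophage-like than in cardiomyocyte-like cells on 12 of 12 and in endothelial-like than in cardiomyocyte-like cells on 17 of 17. It was also higher in macrophage-like than in fibroblast-like cells on 17 of 17 and in endothelial-like than in fibroblast-like cells on 19 of 19. Macrophage-like cells were above endothelial-like cells on 12 of 20 shared plates, so their order was not the same on all plates. In neutrophil-like cells the share was above that of macrophage-like cells on 8 of 13.

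Psmb8, the immune subunit in the place of Psmb5, was close to absent from muscle. Its level over 21 cardiomyocyte-like sums ran from 0 to 20.8 CPM with a median of 0, and 30 UMIs in all were found. In macrophage-like sums it ran from 57.3 to 575 CPM (median 231, n = 23) and in endothelial-like sums from 47.5 to 459 CPM (median 156, n = 27). In fibroblast-like sums it ran from 0 to 118 CPM (median 34.4, n = 20). The lowest macrophage-like and endothelial-like sums were thus above the highest cardiomyocyte-like sum, whereas fibroblast-like sums overlapped it. The classes were tested with edgeR's quasi-likelihood test over 3087 genes, with the plate as a block and Benjamini-Hochberg adjustment. Psmb8 was higher than in cardiomyocyte-like cells by 4.64 ± 0.35 (log2, SE) in macrophage-like cells (24.9-fold, adjusted p = 6.1e-21). It was higher by 4.02 ± 0.34 in endothelial-like (16.2-fold, adjusted p = 1.4e-18) and 2.03 ± 0.40 in fibroblast-like cells (4.08-fold, adjusted p = 7.1e-06). It was also higher in macrophage-like than in fibroblast-like cells by 2.61 ± 0.25 and in endothelial-like than in fibroblast-like cells by 1.99 ± 0.27. The difference of macrophage-like over endothelial-like cells was 0.62 ± 0.23 (adjusted p = 0.017). That last call held with each of 17 plates left out in turn, but not under all 9 other settings of the processing.

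The other immune subunits fell below the filter on low counts in the class comparison and were read without it. Psmb9, in the place of Psmb6, gave 6 UMIs in cardiomyocyte-like cells (1.37 CPM pooled), 41.2 CPM in macrophage-like, 39.8 in endothelial-like and 4.69 in fibroblast-like cells. Without the filter it was higher than in cardiomyocyte-like cells by 4.03 ± 0.49 in macrophage-like and 3.98 ± 0.45 in endothelial-like cells, whereas fibroblast-like cells differed by 1.42 ± 0.60 (adjusted p = 0.060, edgeR). Psmb10, in the place of Psmb7, made up most of the immune share of muscle: 36.4 CPM in cardiomyocyte-like cells from 159 of the 195 immune UMIs in all their wells, those of plates with fewer than 5 included, against 103 CPM in macrophage-like, 75.7 in endothelial-like and 40.6 in fibroblast-like cells. Its differences from cardiomyocyte-like cells without the filter were 0.95 ± 0.27 in macrophage-like (adjusted p = 0.0022), 0.32 ± 0.26 in endothelial-like (adjusted p = 0.42) and -0.20 ± 0.29 in fibroblast-like cells (adjusted p = 0.72).

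The activator genes split by class. Psme4, which encodes the large activator PA200, was the highest of all members in muscle and nowhere else: 381 CPM pooled in cardiomyocyte-like cells, followed there by Psmb7 (231 CPM) and Psmd1 (208 CPM). Over 21 cardiomyocyte-like sums Psme4 ran from 43.5 to 579 CPM (median 350), against 0 to 153 CPM (median 81.6) in macrophage-like, 0 to 285 CPM (median 93.3) in endothelial-like and 0 to 215 CPM (median 97.8) in fibroblast-like sums. The ranges overlapped, and the lowest cardiomyocyte-like values came from IR day 1 and MI. On shared plates Psme4 was lower than in cardiomyocyte-like cells on 11 of 12 in macrophage-like, 16 of 17 in endothelial-like and 12 of 12 in fibroblast-like cells. The fit gave -2.40 ± 0.23 (5.29-fold lower), -2.26 ± 0.20 (4.80-fold lower) and -2.01 ± 0.22 (4.03-fold lower) in that order, with adjusted p of 2.1e-16, 2e-17 and 2.4e-13.

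Psme1 and Psme2 encode the subunits of PA28, the activator induced by interferon gamma, and their levels did not follow the same order over the classes. Psme1 had a median of 54.4 CPM in fibroblast-like sums against 83.0 in cardiomyocyte-like, 155 in endothelial-like and 168 in macrophage-like sums. Psme1 was lower in fibroblast-like than in cardiomyocyte-like cells by 1.01 ± 0.23 on the log2 scale, and higher than in fibroblast-like cells by 1.44 ± 0.19 in macrophage-like and 1.41 ± 0.20 in endothelial-like cells. Psme2 had medians of 45.8 CPM in cardiomyocyte-like, 73.8 in fibroblast-like, 136 in endothelial-like and 153 in macrophage-like sums. It passed the test against cardiomyocyte-like cells in macrophage-like (1.09 ± 0.22) and endothelial-like cells (0.90 ± 0.21) and not in fibroblast-like cells (0.13 ± 0.23). Psme3, which encodes the nuclear activator PA28 gamma, did not pass in any of the 3 comparisons with cardiomyocyte-like cells, and was higher in macrophage-like than in endothelial-like cells by 0.64 ± 0.19 (on 18 of 20 shared plates).

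**Figure D2:**
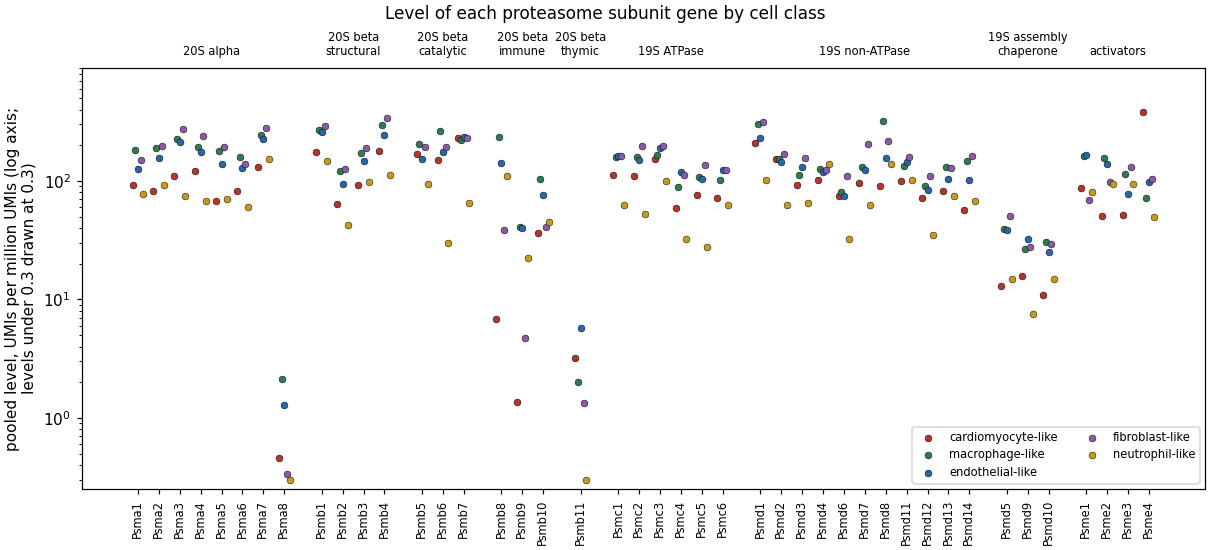
Level of each proteasome gene pooled over plates, in CPM on a log axis, by cell class (colours), with genes ordered by role and levels under 0.3 CPM drawn at 0.3. Psmb8 and Psmb9 fall away in the cardiomyocyte-like class, Psme4 stands at 381 CPM there, and Psma8 and Psmb11 lie near 0 in all classes.

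The constitutive barrel and cap were present in all classes, at lower levels in neutrophil-like cells. Pooled medians over the alpha subunits were 87.4 CPM in cardiomyocyte-like, 187 in macrophage-like, 147 in endothelial-like and 196 in fibroblast-like cells, and those over the ATPases of the cap 93.9, 133, 137 and 150 CPM. The constitutive catalytic subunits had pooled medians of 170, 223, 176 and 194 CPM in the same order. In neutrophil-like cells the medians were 72.6 CPM for the alpha subunits, 57.6 for the ATPases and 65.1 for the catalytic subunits. Psma8, the testis form, stayed at or below 2.11 CPM and Psmb11, the thymic form, at or below 5.78 CPM in every class. Psmd8, a subunit of the cap's lid, was the highest member in macrophage-like cells (321 CPM) and Psmb4, a structural subunit, the highest in fibroblast-like cells (343 CPM).

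The fit across classes placed these genes relative to all others, and 34 of the 43 members passed its filter. Against cardiomyocyte-like cells, 3 members were higher and 11 lower in macrophage-like cells, where 40.4% of all 3087 genes were called higher and 30.4% lower. In the same test, 2 were higher and 15 lower in endothelial-like cells (41.3% and 26.7% of all genes), and 2 higher and 11 lower in fibroblast-like cells (38.2% and 28.4%). Without the plate block the split was 8 higher and 6 lower in macrophage-like, 2 and 9 in endothelial-like and 6 and 7 in fibroblast-like cells. The member medians were -0.15, -0.40 and -0.27 beside 0.19, 0.31 and 0.17 for all genes, so the typical subunit sat below the typical gene in these contrasts. Psmb7 was lower by 0.83, 0.78 and 0.86, and Psmb5 by 0.66, 1.06 and 0.69 on the log2 scale. The mean level of Psmb5 was nevertheless 185 ± 79.7 CPM (SD, n = 23) in macrophage-like and 156 ± 65.9 CPM (n = 21) in cardiomyocyte-like sums. CPM divides by all UMIs, whereas the fit scales by the trimmed mean of M values (TMM). Of all UMIs, the ribosomal precursor Rn45s took a median of 24.2% to 26.9% in sham cardiomyocyte-like sums and 1.47% in IR day 1 macrophage-like sums. Under the median-ratio scaling (RLE) the median of all genes moved from 0.19 to -0.08 for macrophage-like and from 0.31 to 0.17 for endothelial-like against cardiomyocyte-like cells. TMM scales every sum to 1 reference, here the cardiomyocyte-like sum of MI plate 3 with 6 wells, and 11 sums served in that role as the 17 plates of groups with 2 to 5 plates were left out in turn. The median of all genes then ran from -0.17 to 0.21, 0.05 to 0.21 and -0.02 to 0.21 in the 3 contrasts, and the counts of calls from 12 to 21, 20 to 27 and 10 to 15. Taken relative to the median of all genes, the member median moved less, from -0.33 to -0.25, -0.73 to -0.66 and -0.48 to -0.38, beside -0.34, -0.72 and -0.44 with all plates.

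**Figure D3:**
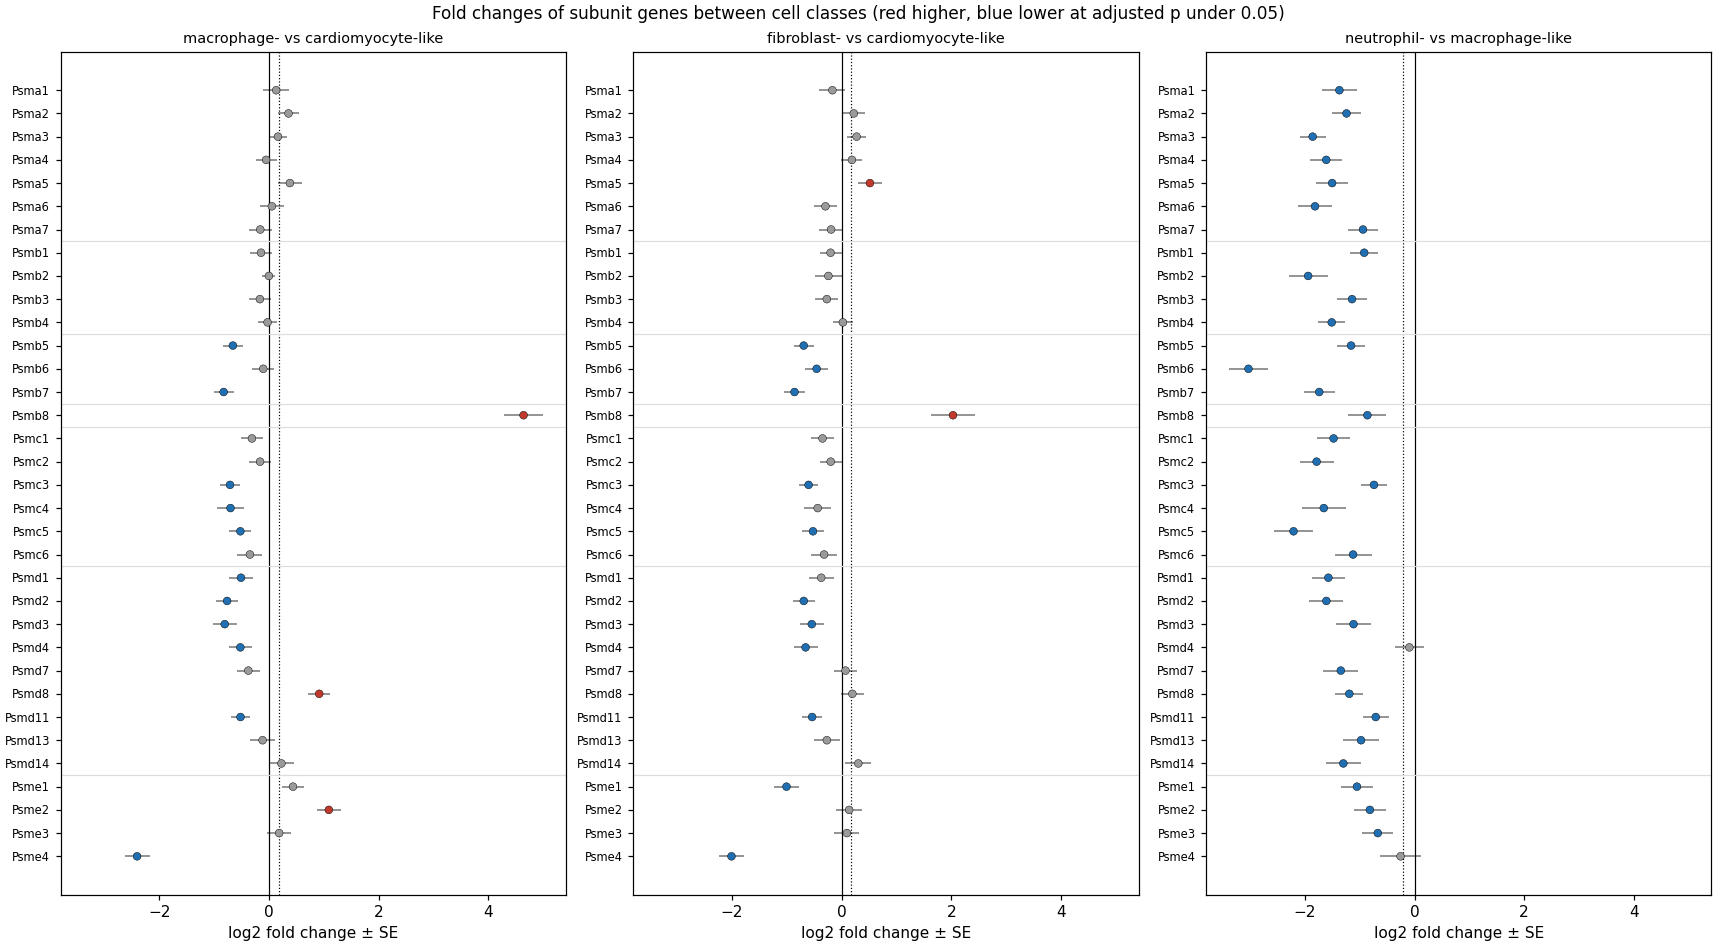
Log2 fold change with SE of each tested proteasome gene in macrophage-like against cardiomyocyte-like, fibroblast-like against cardiomyocyte-like and neutrophil-like against macrophage-like cells, from edgeR with the plate as a block. Red and blue points passed an adjusted p of 0.05, higher and lower, grey ones did not, and the dotted line marks the median of all genes. Psmb8 at 4.64 and Psme4 at -2.40 bound the first contrast, and 32 of 34 genes are called lower in the last.

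Macrophage-like, endothelial-like and fibroblast-like cells were also compared with each other. Macrophage-like cells were above endothelial-like cells in 7 members and below in 1 (27.1% and 32.3% of all genes), with Psmd8 first (0.98 ± 0.18) and Psmc4, a cap ATPase, lower (-0.50 ± 0.20). The call of Psmc4 was lost with 11 of 17 plates left out in turn, at values of -0.42 to -0.31 (adjusted p of 0.062 to 0.22). Against fibroblast-like cells, macrophage-like cells were higher in Psmb8, Psme1, Psme2 and Psmd8 and lower in Psmd7 (31.6% and 27.2% of all genes), a call lost without MI plate 4 (-0.43, adjusted p = 0.057) or 5 (-0.41, adjusted p = 0.065). Endothelial-like cells were higher in Psmb8, Psme1 and Psme2 and lower in Psmd7, Psme3, Psmd14 and Psma4 (29.7% and 20.2%). With plates left out in turn, and the reference sum moving with them, these 3 contrasts gave 5 to 17, 4 to 12 and 10 to 15 calls. The extremes were 5 and 12 without sham day 1 plate 1, 17 without MI plate 3 and 15 without MI plate 1. Psmb8, Psme1 and Psme2 stayed called against fibroblast-like cells whichever of these 17 plates was left out. Under all 9 other settings the same held in macrophage-like cells. In endothelial-like cells it held for Psmb8 and Psme1 and not for Psme2. No constitutive catalytic subunit passed in either contrast with fibroblast-like cells. Psmb8, Psme1 and Psme2, the tested members known to be induced by interferon gamma, were thus 3 of the 4 members called higher in macrophage-like and all 3 called higher in endothelial-like than in fibroblast-like cells.

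Neutrophil-like cells, present at IR day 1 and MI in numbers that could be summed, were low in nearly the whole set. Of 34 members tested, 32 were lower than in macrophage-like cells and none higher (33.5% and 23.7% of all genes), with a member median of -1.27 beside -0.21 for all genes. Psmb6 had the largest difference: it ran from 0 to 85.7 CPM in 14 neutrophil-like sums (median 15.3) and from 85.2 to 408 CPM in 23 macrophage-like sums (median 244). The log2 difference was -3.03 ± 0.35 (8.14-fold lower, adjusted p = 9.1e-12). Psmb8 was lower by 0.86 ± 0.34, a call lost without MI plate 2 (-0.71, adjusted p = 0.077) or 3 (adjusted p = 0.055) or sham day 1 plate 1 (adjusted p = 0.058). The members not called were Psmd4, a ubiquitin receptor of the cap, and Psme4 (-0.25 ± 0.38, adjusted p = 0.59). These sums were small, with 105 wells at IR day 1 and 49 in MI, and RLE scaling, which moved the median of all genes to 0.46, left 14 members lower, and DESeq2 17 (1 higher and 16 lower).

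The study set injured against sham hearts, and the comparisons below ask how the subunits differed by injury and day within a class. Fibroblast-like cells had the most calls in the main fits. RLE scaling gave 12 calls in them at IR day 1 and 12 in cardiomyocyte-like cells after MI. At IR day 1 the summed level of fibroblast-like cells was 6527 to 8852 CPM over 5 plates (mean 7902), against 2872 to 4493 CPM over 3 sham day 1 plates (mean 3791) and 4056 CPM on the sham day 14 plate. The groups did not overlap. IR day 3 lay lower at 3750 to 6662 CPM (4 plates), IR day 14 had a mean of 3126 CPM (2 plates) and MI day 3 ran from 6004 to 7099 CPM (5 plates).

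In the comparison of IR day 1 with sham day 1, which was added after the levels had been seen, 17 of 39 tested members were higher and 1 lower (11.1% and 7.72% of all 6493 genes). Of the 39, 36 had a fold change above 0. The member median was 1.04 beside 0.20 for all genes. Calls were spread over the complex: 5 of 7 alpha subunits, 2 of 4 structural beta subunits, 3 of 6 ATPases, 6 of 11 other cap subunits and 1 of 4 activators rose. The constitutive catalytic subunits had values of 0.76 (Psmb5), 0.93 (Psmb6) and 1.07 (Psmb7) and did not pass. The count of 18 calls fell to 9 without sham day 1 plate 1 and to 7 without sham day 1 plate 4.

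Psmb2, a structural subunit, was at 0, 27.3 and 36.4 CPM on the sham day 1 plates and at 145, 267, 240, 138 and 162 CPM on the IR day 1 plates. The sham value rested on 3 UMIs, and the pooled ratio was 8.22 with a counting interval of 2.75 to 40.4; the fitted change was 3.12 ± 0.61 (adjusted p = 0.00096). Psme3 was at 56.9, 27.3 and 0 CPM in sham and at 185, 311, 269, 155 and 187 CPM at IR day 1. It rose by 2.92 ± 0.55 (adjusted p = 0.00076), a value that rested on 4 sham UMIs (ratio 7.18, interval 2.74 to 26.7). Both genes were higher on every IR day 1 plate than on any sham day 1 plate, as was Psma1 (rise of 2.76 ± 0.56). Psma7, another alpha subunit, was at 85.3, 95.4 and 109 CPM in sham and 252, 434, 348, 354 and 400 CPM at IR day 1, a rise of 1.94 ± 0.40 (3.84-fold, adjusted p = 0.0015).

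Psmb8 was the member called lower in these cells. It was at 28.4, 68.2 and 72.7 CPM on the sham day 1 plates, 118 CPM on the sham day 14 plate, and 0, 0, 0, 16.6 and 24.98 CPM at IR day 1, below every sham plate. It fell by 2.84 ± 0.91 on the log2 scale (adjusted p = 0.029), from 8 UMIs in sham day 1 and 5 at IR day 1; the pooled level was 7.85-fold lower with a counting interval of 2.26 to 30.5. Psmb9 had no UMI on the sham day 1 plates and 1 UMI on each of 2 IR day 1 plates. Psmb10 differed by -1.09 ± 0.67 (adjusted p = 0.27) and Psme1 by -1.22 ± 0.59 (adjusted p = 0.15). The immune share was 23.7% to 28.6% on sham day 1 plates and 0% to 10.2% at IR day 1 (means of 26.8% and 5.33%), then 6.45% to 22.2% at IR day 3 and 11.3% to 15.03% at MI day 3. The sham and IR day 1 ranges did not overlap. The call of Psmb8 was lost without sham day 1 plate 3 (-2.36, adjusted p = 0.23) or plate 4 (-2.81, adjusted p = 0.069). It was also lost without IR day 1 plate 3 (adjusted p = 0.051), 5 (0.052) or 6 (0.051).

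Different clusters held most fibroblast-like wells in these groups. A cluster led by Timp1 and Tnc held most of those at IR day 1 and MI, and another led by Pi16 and Scara5 held most of those in sham day 1. Within the Timp1 and Tnc cluster the pooled immune share was 5.93% at IR day 1 (4.37 to 7.83), 17.4% at IR day 3 (12.4 to 23.4) and 12.3% at MI day 3 (11.4 to 13.3). In the Pi16 and Scara5 cluster it was 25.7% in sham day 1 (16.01 to 37.6) and 10.2% at IR day 3 (3.40 to 22.2). Cardiomyocyte markers moved with the groups too: all 10 together took 2872 to 16609 CPM of sham day 1 fibroblast-like sums, 50.0 to 397 CPM at IR day 1 and 22.3 to 185 CPM at MI. The median well held 3739, 11779 and 45195.5 UMIs. Their part in the result was not tested.

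In fibroblast-like cells after MI the calls were all higher, and Psmb8 did not pass the test. Against sham of both days, also a comparison added after the levels were seen, 13 of 39 members rose and none fell (11.5% higher and 5.91% lower among all genes), with a member median of 0.99 beside 0.41. The count was 3 under RLE scaling and 3 with DESeq2. Psma7 was at 302, 283, 271, 279 and 325 CPM on the MI plates, above the 85.3 to 196 CPM of the sham plates, and rose by 1.25 ± 0.35. Psmd3, a scaffold subunit of the cap, rose by 1.95 ± 0.49. The fitted values of Psmb2 (5.75) and Psmc6 (4.82) depended on the sham day 14 sum, in which neither gene had a UMI. Their pooled ratios were 8.26 (2.82 to 40.1) for Psmb2 and 2.32 (1.26 to 4.86) for Psmc6. Psmb8 was at 47.0, 45.8, 36.3, 53.7 and 32.4 CPM on the MI plates and differed from sham by -0.79 ± 0.54 (adjusted p = 0.33).

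Set against IR day 3, the same day after another kind of injury, 5 of 39 members were higher in MI and none lower in fibroblast-like cells (4.19% and 6.38% of all genes), and 37 had a fold change above 0. Psmc4 was at 40.7, 47.8, 49.7 and 44.3 CPM at IR day 3 and at 116, 118, 107, 124 and 130 CPM after MI, a rise of 1.27 ± 0.30 (2.41-fold, adjusted p = 0.0065) with no overlap. The ATPase Psmc1 (0.89 ± 0.26), the alpha subunit Psma3 (0.96 ± 0.27), the cap subunit Psmd6 (1.08 ± 0.30) and the structural subunit Psmb3 (1.07 ± 0.34) were the other calls. Psmb8 did not pass (-0.16 ± 0.45). The count of 5 was 2 without IR day 3 plate 7 or MI plate 1, 2 or 3, 3 without IR day 3 plate 4 or MI plate 5, and 9 without IR day 3 plate 5. With sums of at least 10 wells 23 of 40 members were called higher, and the count was 2 under RLE scaling and 8 with DESeq2. The Timp1 and Tnc cluster held 36 of 72 fibroblast-like wells at IR day 3 and 131 of 132 in MI. The median well held 2728 UMIs at IR day 3 and 45195.5 in MI. The part of these differences in the result was not tested. Of 41 members tested, none passed the test of whether MI against IR day 3 differed between macrophage-like and fibroblast-like cells (2.38% of all genes), with 2 at an unadjusted p under 0.05 by edgeR and 0 by DESeq2.

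**Figure D4:**
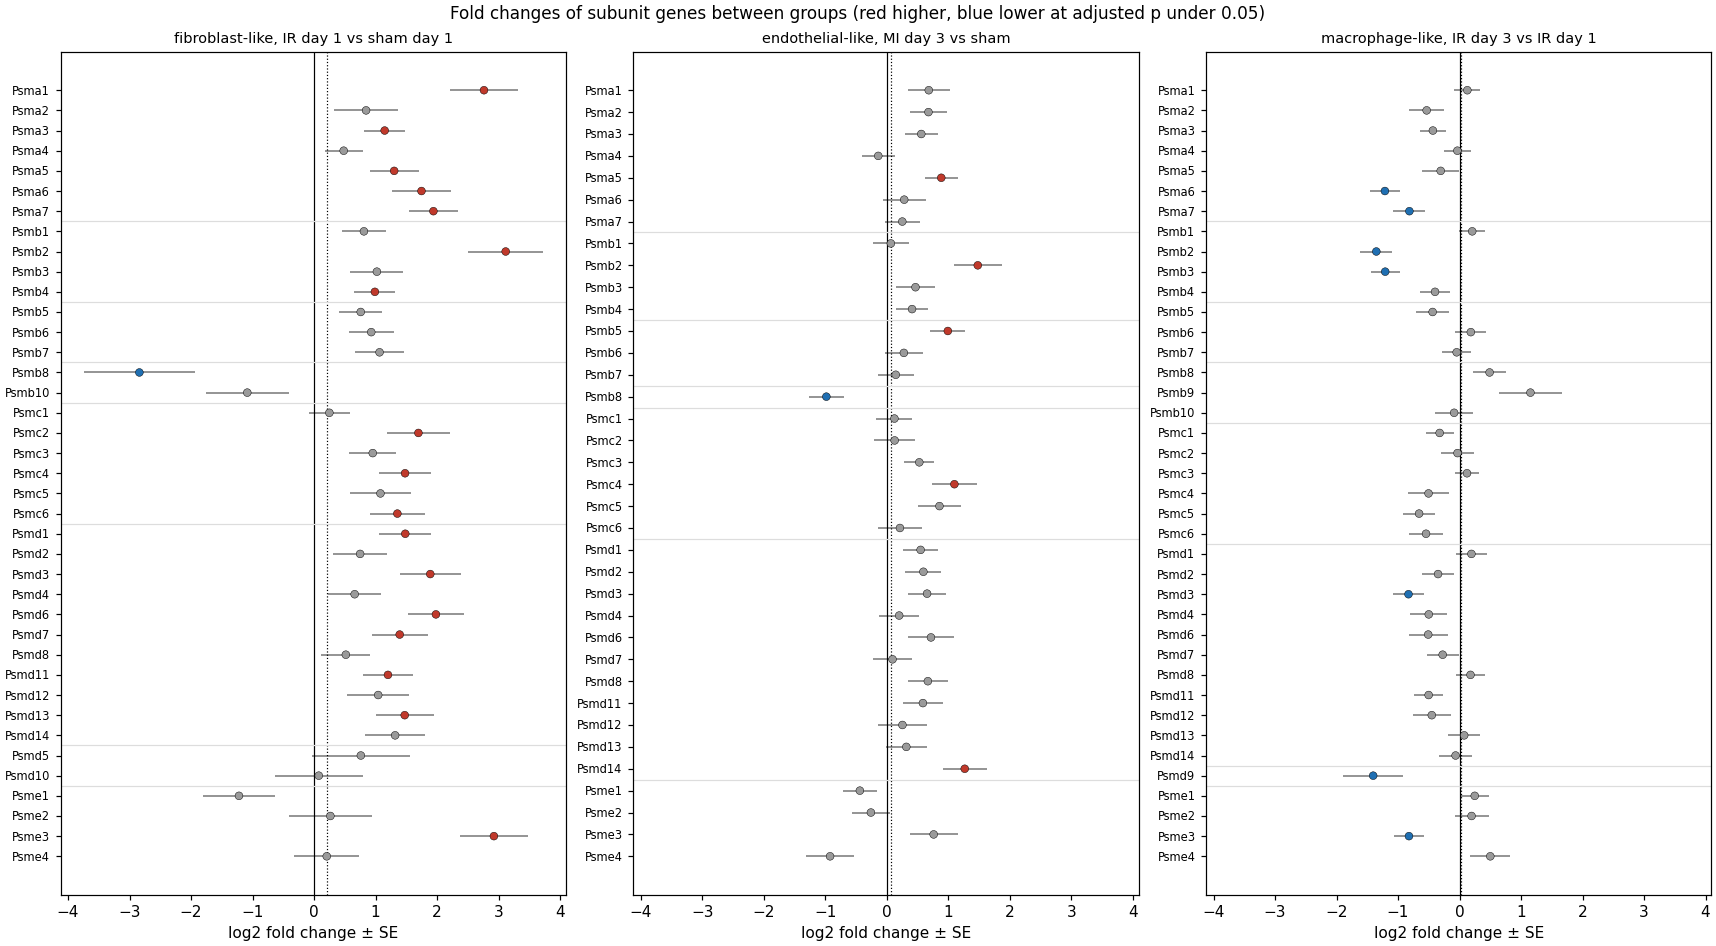
Log2 fold change with SE of each tested proteasome gene in fibroblast-like cells at IR day 1 against sham day 1, endothelial-like cells after MI against sham, and macrophage-like cells at IR day 3 against IR day 1. Red and blue points passed an adjusted p of 0.05, higher and lower, grey ones did not, and the dotted line marks the median of all genes. Psmb8 is the gene called lower in the first and second, at -2.84 and -0.98, where most other members lie above 0.

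In endothelial-like cells after MI, Psmb8 was lower and Psmb5, whose place it takes, was higher. Psmb8 was at 100, 81.0, 146, 127 and 74.9 CPM on the MI plates, 187, 206, 111 and 176 CPM in sham day 1 and 285, 294, 187 and 202 CPM in sham day 14. All MI values were below all sham day 14 values and overlapped the lowest sham day 1 value, and the gene fell by 0.98 ± 0.28 (1.98-fold lower, adjusted p = 0.0064). The call of Psmb8 was lost without the low-count filter (-0.88, adjusted p = 0.10). Psmb5 was at 203, 240, 226, 147 and 200 CPM after MI against 52.0 to 158 CPM on the 8 sham plates, a rise of 0.99 ± 0.28 (adjusted p = 0.0058). The immune share had means of 43.5% in sham day 1, 46.5% in sham day 14, 32.1% at IR day 1, 37.1% at IR day 3 and 44.5% at IR day 14. In MI the mean was 21.5% and it ran from 15.4% to 30.6%, below the 34.8% of the lowest sham plate.

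In all, 5 of 36 tested members rose after MI in endothelial-like cells and 1 fell (19.7% and 17.3% of all 3348 genes), and 31 lay above 0, with a member median of 0.44 beside 0.07. The rises were Psmb2 (1.48 ± 0.39), Psmd14 (1.27 ± 0.35), Psmc4 (1.10 ± 0.36), Psmb5 and the alpha subunit Psma5 (0.89 ± 0.27). Psma5 was lost without sham day 14 plate 1 (0.66, adjusted p = 0.062), and Psmc4 without that plate (0.92, adjusted p = 0.062) or MI plate 1 (0.85, adjusted p = 0.096) or 3 (0.97, adjusted p = 0.052). Psmd14 was at 150, 117, 139, 98.1 and 99.9 CPM after MI, above the 0 to 94.1 CPM of the sham plates. At IR day 1 against sham day 1, Psmd14 (1.53 ± 0.43), Psmc4 (1.33 ± 0.43) and the cap scaffold Psmd3 (1.12 ± 0.36) rose and none fell (7.47% and 7.83% of all genes). Psmb8 differed by -0.25 ± 0.32 and ran from 47.5 to 459 CPM. Without the low-count filter, or without sham day 1 plate 3 or 4, 0 of these calls were left, and without plate 1 or 2, IR day 1 plate 4, 5, 7 or 8, IR day 3 plate 4 or IR day 14 plate 3, 1 was left. At IR day 14 against sham day 14 no member was called, as was no gene at all (percent called 0), with 0 members and 169 genes at an unadjusted p under 0.05 by edgeR and 0 calls by DESeq2.

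Here too the wells came from different clusters. A capillary cluster led by Tcf15 and Timp4 held most sham wells, and one led by Plvap and Vwf most MI wells. The pooled immune share was 44.6% in sham day 1 (39.5 to 49.7), 53.4% in sham day 14 (46.6 to 60.2) and 41.6% at IR day 1 (33.3 to 50.3) within the first. It was 21.3% at IR day 1 (16.7 to 26.5) and 21.1% after MI (18.5 to 23.9) within the second. At IR day 1, where both clusters could be read, their intervals did not overlap, and within the second the IR day 1 and MI intervals did. These intervals cover counting error only and leave out the spread between plates. Cardiomyocyte markers took 11060 to 36254 CPM of the sham endothelial-like sums and 45.3 to 275 CPM of the MI sums. The median well held 3127 and 2960 UMIs in sham and 16645 in MI. Their part in the result was not tested.

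**Figure D5:**
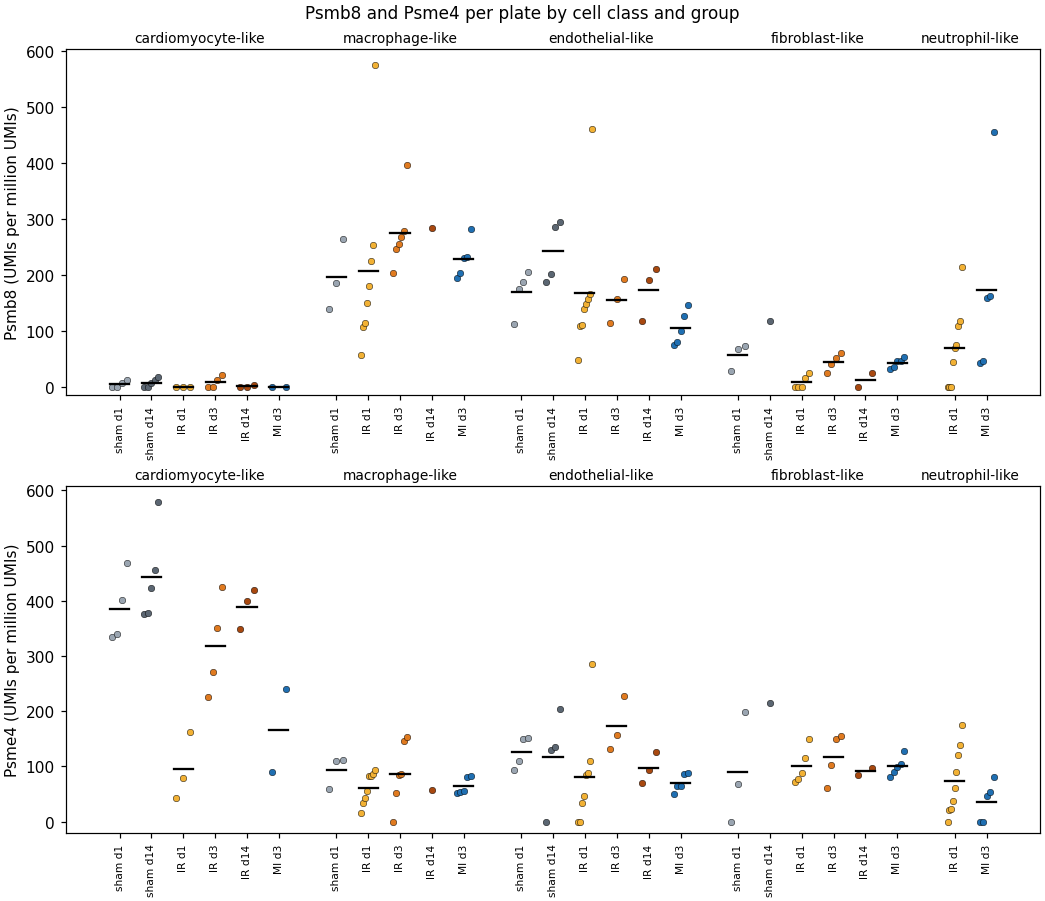
Levels of Psmb8 and Psme4 in CPM on each plate, by cell class and group; each point is the sum of at least 5 wells of a plate, and bars mark the mean. Psmb8 is at 0 to 20.8 CPM in cardiomyocyte-like sums and lower in MI than in sham day 14 in endothelial-like sums. Cardiomyocyte-like sums have Psme4 at 335 to 579 CPM in sham and 226 to 425 CPM at IR day 3. All their IR day 1 and MI values are below the sham values.

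Macrophage-like cells were compared between injury days. Their summed level was 6303 to 9732 CPM at IR day 1 (8 plates, mean 7075), 4895 to 7378 CPM at IR day 3 (6 plates, mean 5914). It was 6369 to 6909 CPM in MI (5 plates, mean 6611), beside a mean of 5032 CPM in 3 sham day 1 sums. From IR day 1 to IR day 3, 7 of 39 members fell and none rose (11.9% and 11.6% of all 4907 genes), with a member median of -0.32 beside 0.02. Psmb3, a structural subunit, ran from 176 to 340 CPM at IR day 1 (median 262) and from 51.0 to 176 CPM at IR day 3 (median 110), without overlap, and fell by 1.21 ± 0.23 (adjusted p = 0.00032). Psmb2 fell by 1.35 ± 0.26, Psma6 by 1.21 ± 0.25, Psme3 by 0.82 ± 0.24, Psmd3 by 0.83 ± 0.25, Psma7 by 0.82 ± 0.26 and the chaperone Psmd9 by 1.40 ± 0.49. With each plate left out in turn, 5 to 8 members were called. Psmd9 was lost without IR day 1 plate 6, 8 or 9 or IR day 3 plate 7 (adjusted p of 0.051 to 0.11), Psma7 without IR day 1 plate 8 (adjusted p = 0.057) and Psmd3 without IR day 3 plate 7 (adjusted p = 0.056). The count was 3 with sums of at least 10 wells and 3 without the low-count filter. Different clusters held these wells: 140 of 181 at IR day 3 lay in a cluster led by Gpnmb, against 3 of 77 at IR day 1, and the part of this difference in the result was not tested. Psmb8, Psmb9 and Psmb10 did not pass. Psmb8 ran from 57.3 to 575 CPM (median 165) and from 204 to 395 CPM (median 262), a difference of 0.49 ± 0.27 (adjusted p = 0.20). Psmb9 differed by 1.15 ± 0.52 (adjusted p = 0.11).

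The immune share of macrophage-like sums ran from 9.52% to 47.4% at IR day 1, 30% to 58.3% at IR day 3 and 30.4% to 39.5% in MI, with overlap throughout, and the single IR day 14 sum was at 55.2%. The Gpnmb cluster that held most IR day 3 wells had 35.8%. The Cd163, Folr2 and Lyve1 cluster that held most MI wells had 34.2%, 35.7% and 32.9% at IR day 1, IR day 3 and MI. Between IR day 3 and MI, 1 of 39 members differed, Psmb2, which was higher in MI by 0.83 ± 0.24 (adjusted p = 0.031; 4.89% of all genes higher and 3.79% lower). The call was lost without MI plate 1, 2, 4 or 5 (adjusted p of 0.056, 0.070, 0.053 and 0.058), and without IR day 3 plate 4 or 7 (adjusted p of 0.095 and 0.11). The count rose to 5 without IR day 1 plate 1, 3 or 9, to 4 without plate 4 or 7, to 3 without plate 5 or IR day 3 plate 1, and to 2 without IR day 1 plate 8, IR day 3 plate 5 or 6 or sham day 1 plate 3 or 4.

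In cardiomyocyte-like cells the activator Psme4 was lower at IR day 1 and in MI, with Psmb7 also called at IR day 1 and Psmd1 in MI. Psme4 was at 339, 401, 468 and 335 CPM in sham day 1, 376, 579, 456, 377 and 424 CPM in sham day 14. It was at 43.5, 163 and 79.4 CPM at IR day 1 and 425, 226, 272 and 351 CPM at IR day 3. Later and after MI it was at 419, 399 and 348 CPM at IR day 14, and 241 and 90.5 CPM in MI. All IR day 1 and MI values were below all sham values, and those of IR day 14 lay within the sham range. At IR day 1, Psme4 fell by 2.67 ± 0.54 (6.37-fold lower, adjusted p = 0.00029). Psmb7, at 162, 148, 155 and 182 CPM in sham day 1 and 87.0, 0 and 52.9 CPM at IR day 1, fell by 2.22 ± 0.68 (adjusted p = 0.018). These were 2 of 36 tested members lower and none higher (9.48% and 3.89% of all 4291 genes). The IR day 1 sums held 7 UMIs of Psme4 and 4 of Psmb7 over 3 plates, and the call of Psmb7 was lost without IR day 1 plate 2 (adjusted p = 0.12) or plate 3 (adjusted p = 0.069). The median of all genes was -0.57 in this contrast and 0.01 under RLE scaling, against which Psme4 was still called and Psmb7 was not. In wells of at least 2000 UMIs, only 1 IR day 1 plate could be summed. That setting thus could not test these calls. Of 30 cardiomyocyte-like wells at IR day 1, 24 lay in a cluster led by Sprr1a and Nppa, which held 6 of 199 sham day 1 wells. Within that cluster Psme4 was at 126 CPM at IR day 1, 392.4 at IR day 3 and 319 at IR day 14 (pooled), and the part of the cluster in the result was not tested.

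In MI, Psme4 fell by 1.87 ± 0.44 (3.66-fold lower, adjusted p = 0.0005) and Psmd1, the large scaffold of the cap base, by 1.53 ± 0.48, from 158 to 547 CPM on sham plates to 114 and 136 CPM. With MI plate 3 left out, which leaves 1 MI plate, Psme4 was at -0.88 and Psmd1 at -1.06, and neither call was kept. With MI plate 2 left out Psmd1 was at -1.50 and was not kept either. The count of calls was 6 without sham day 1 plate 1 or IR day 3 plate 4, and 5 without sham day 1 plate 2 or sham day 14 plate 5 or 8. These larger counts include members other than Psme4 and Psmd1. These were 2 of 36 members lower and none higher (22.8% and 14.3% of all genes), yet the member median was 0.46 beside -0.26 for all genes. The summed level was 6485 and 7559 CPM on the 2 MI plates against means of 3685 and 3622 CPM in sham. With RLE scaling, which moved the median of all genes to 0.15, 10 members were called higher and 2 lower, and with DESeq2 7 and 1. Psmb7, for example, was at 355 and 724 CPM in MI, with a difference of 0.76 ± 0.37 (adjusted p = 0.096). The MI sums held 12 wells. All 19 cardiomyocyte-like MI wells lay in the cluster led by Sprr1a and Nppa and had a median mitochondrial share of 5.83%, against 79.7% and 83.0% in sham wells, and the part of that difference in the result was not tested.

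Against IR day 3, 1 of 36 members was lower in MI, Psme4 by 1.42 ± 0.46 on the log2 scale (17.1% of all genes lower and 7.22% higher). With RLE scaling 2 members were called higher and 0 lower. The call of Psme4 was lost without MI plate 2 (-2.52, adjusted p = 0.071) or plate 3 (-0.54, adjusted p = 0.57). It was also lost without IR day 3 plate 4 (-1.03, adjusted p = 0.15), sham day 1 plate 2 (adjusted p = 0.051) or sham day 14 plate 8 (adjusted p = 0.051). No member was called at IR day 3 against sham (6.39% of all genes) or at IR day 14 against sham day 14 (0.186%), where 2 and 1 members had an unadjusted p under 0.05 by edgeR and DESeq2 also called none. The test of whether MI against IR day 3 differed between macrophage-like and cardiomyocyte-like cells called 0 of 41 members (6.5% of all genes), with 3 at an unadjusted p under 0.05, and 0 by DESeq2. Without MI plate 1, 4 or 5 it called 2. The immune share of cardiomyocyte-like sums stayed low throughout, with group means of 5.33% to 10.4%, and Psmb8 was at 0 on all 3 IR day 1 and both MI plates. The IR day 1 share rested on 2 immune and 22 constitutive UMIs (interval 1.03 to 27.0). These sums held 18414 to 37774 UMIs at IR day 1 and 44184 and 78951 in MI. At the pooled 6.86 CPM of Psmb8 in the class, sums of that size can hold 0.

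Genes that work with the proteasome were read from lists chosen by function. Among class I loading genes, which use its peptides, 4 of 7 fell and 2 rose in endothelial-like cells after MI (17.3% and 19.7% of all genes), with the heavy chain H2-K1 at -1.69 ± 0.29, its loading partner Tapbp at -1.04 ± 0.32 and the light chain B2m at -0.94 ± 0.27. The chaperones Calr and Pdia3 were higher, at 1.09 ± 0.27 and 0.87 ± 0.26. In fibroblast-like cells at IR day 1, 3 of 7 fell and none rose, where 7.72% and 11.1% of all genes did (Tapbp at -2.79 ± 0.34, B2m at -1.40 ± 0.30 and H2-K1 at -1.24 ± 0.32). Psmb8 was lower in both of these contrasts. In macrophage-like cells 3 of 8 rose from IR day 1 to IR day 3, where 11.6% of all genes rose (H2-D1 1.15 ± 0.23, B2m 1.16 ± 0.23, H2-K1 0.68 ± 0.22).

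Of interferon response genes, 2 of 9 fell in endothelial-like cells after MI, a share near the 17.3% of all genes that fell. The GTPase Gbp2 fell by 2.29 ± 0.42 and the transcription factor Irf1 by 1.21 ± 0.44. In the same list, 3 of 12 fell in fibroblast-like cells at IR day 1 (7.72% of all genes), Gbp2 by 3.93 ± 0.95 and Irf1 by 2.79 ± 0.81 among them. Macrophage-like cells had 5 of 11 lower in MI than at IR day 3 (3.79% of all genes), with Ifit1 at -3.36 ± 0.54, while Psmb8 was at -0.17 ± 0.26 there (adjusted p = 0.77), where those genes passed and Psmb8 did not. The Gpnmb cluster, with Mx1 and Cxcl10 among its leading genes, held 140 of 181 of these wells at IR day 3. It held 5 of 212 in MI, and its part in the result was not tested.

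Assembly factors and cap partners were read in the same contrasts. In fibroblast-like cells at IR day 1, 4 of 13 rose (11.1% of all genes), with the cap-bound deubiquitinase Usp14 at 1.83 ± 0.50 and the assembly factor Pomp at 1.49 ± 0.51. The count was 3 of 7 after MI in endothelial-like cells (19.7% of all genes), with Usp14 at 1.27 ± 0.37, Pomp at 0.82 ± 0.27 and the small cap subunit Shfm1 at 0.71 ± 0.27. Of genes for ubiquitin and the transcription factor Nfe2l1 (NRF1), which drives proteasome genes when the protease is impaired, the ubiquitin fusion Rps27a (1.55 ± 0.29) and the segregase Vcp (1.34 ± 0.36) were among those that rose in fibroblast-like cells at IR day 1, 3 of 8 in all (11.1% of all genes). Nfe2l1 itself was lower in cardiomyocyte-like cells after MI by 2.63 ± 0.51, beside higher Rps27a (2.26 ± 0.33), where 1591 of all 4291 genes were called. The MI contrasts of a class share their sham plates, as do all contrasts with sham day 1. The muscle ubiquitin ligase Fbxo32 (atrogin-1) differed in cardiomyocyte-like cells by -3.48 ± 0.75 at IR day 1 and by -2.15 ± 0.56 after MI, the contrasts in which Psme4 was lower. Of all 4291 genes, 574 were called at IR day 1 and 1591 after MI. Other genes of these lists are not given for the contrasts of cardiomyocyte-like cells.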

How the data were processed

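Single cells sorted into the wells of plates were read by SORT-seq. Per the labels and the methods of the study, the authors demultiplexed the reads by well, aligned them with BWA (the submitters' processing notes name GRCm38 and mm10) and deposited 1 table per plate of UMI counts per gene and well. The UMI had 6 bases, so 4096 were possible, and the highest value of a member was 163. Whether counting used strand is not given in the sources used here. Of 36 tables, 1 pair held the same sham day 14 plate and counted as 1. Another 20 wells, which matched the deeper well of the same number on another plate in profile, were left out. Spike-ins and mitochondrial genes were set aside.

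Wells of at least 1000 UMIs were clustered with scanpy 1.11.5 (2000 variable genes, 30 components, 15 neighbours, Leiden resolution 1), with 99 member and partner genes barred. A cluster was named from at least 3 markers, so class names are rebuilt here; doublets were not called. Counts were summed per plate and class (at least 5 wells) and tested with edgeR 4.0.16 (quasi-likelihood test, TMM, filterByExpr, Benjamini-Hochberg adjustment over all genes tested, threshold 0.05) in R 4.3.3, with the plate as a block between classes. Fits within a class held all groups, which share 1 estimate of the spread, and the script was tested on simulated data. DESeq2 1.42.0, RLE scaling and other alternatives were run beside leaving out in turn each plate of groups with 2 to 5 plates and, between groups of macrophage-like and endothelial-like cells, of larger groups. Intervals of shares are exact (Clopper-Pearson) and, like those of ratios, cover counting error only. Tables were handled with pandas 2.3.3, numpy 2.4.6 and scipy 1.17.1, and figures were drawn with matplotlib 3.10.9.

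The members and gene lists were chosen with earlier results of these data known. Named throughout were the 3 immune and 3 constitutive catalytic subunits and Psme1 to Psme4, with the members of the 4 smallest p in each direction per comparison and of the 3 highest levels per class; Psma7, Psmd3 and other genes named beyond these were chosen after their values were seen. Plates of different groups share replicate numbers, but their deviations from the group means correlated at -0.16 to 0.12 in same-numbered pairs, so the numbers did not pair the plates. Sham hearts of day 3 were not analysed here. Some genes, some promoter motifs and a cluster that were computed are not reported here.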

Additional observations from a re-analysis of the deposited data

Results flagged for a closer look

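Among 180 groups of plates, 23 held a plate far from the others by Dixon's test (12.8%, where chance gives about 1 in 20), and no cause was tested. Macrophage-like cells of IR day 1 plate 9 stood out in 4 measures, with a summed level of 9732 CPM (6303 to 7541 on the other plates), Psmb8 at 575 CPM (57.3 to 253), Psme2 at 370 CPM (28.6 to 153) and Psmb9 at 164 CPM (0 to 32.05). This is a plate from which copied wells were removed. Endothelial-like cells of IR day 1 plate 5 had the highest summed level of their group, 8499 CPM (5155 to 6596), and the highest Psmb8, 459 CPM (47.5 to 166), and plate 6 the highest Psme4, 285 CPM (0 to 110).

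In fibroblast-like cells, IR day 3 plate 5 was high in the summed level, 6662 CPM (3750 to 3991), and in Psmb5, 298 CPM (102 to 133), and IR day 3 plate 4 was the plate with Psmb9, 13.7 CPM beside 0. MI plate 4 had an immune share of 15.03% (11.3 to 12.2) and MI plate 2 a low Psmb10 of 29.6 CPM (41.7 to 44.4). In endothelial-like cells after MI, plate 1 was high in Psmb6, 272 CPM (160 to 192), plate 3 in Psme3, 146 CPM (69.5 to 83.5), and plate 5 low in Psme2, 24.97 CPM (131 to 136), and Psmb10 was low at 94.9 CPM (111 to 114) on sham day 1 plate 2. Macrophage-like cells of IR day 3 plate 3 had Psme3 at 204 CPM (48.8 to 87.8).

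Cardiomyocyte-like cells of sham day 14 plate 5 had Psmb7 at 408 CPM (119 to 182), and Psmb9 was at 18.5 CPM on sham day 1 plate 2 and 1.18 CPM on IR day 3 plate 4, with 0 on the other plates of those groups. Neutrophil-like sums, the smallest, had Psmb8 at 455 CPM on MI plate 1 (42.9 to 161), Psmb9 at 242 CPM on MI plate 5 (0 to 23.0) and Psmb7 at 153 CPM on IR day 1 plate 3 (21.9 to 69.1).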

How the results depend on the processing

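Of 248 fold changes of named genes, 221 kept direction and side of the threshold under RLE scaling and 223 under DESeq2; Psme3 in neutrophil-like against macrophage-like cells reversed, to 0.028 and 0.046. Under 9 settings and with each of the 17 plates of groups with 2 to 5 plates left out in turn, calls kept throughout were 8, 11 and 6 of the 14, 17 and 13 in macrophage-like (M), endothelial-like (E) and fibroblast-like (F) against cardiomyocyte-like cells (C). Small sums of few UMIs limit the group contrasts, and the sums of 10 or more wells allowed 17 of the 22 comparisons.

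Counts of called members that moved by over 1.5 times were these; the cause was not tested. DESeq2 gave 24 for M against C (14), 26 for E against C (17), 21 for F against C (13), 8 for M against F (5), 17 for neutrophil-like against M (32), 8, 1 and 3 for C in MI against sham (2), IR day 1 against sham (2) and MI against IR day 3 (1), 3 for M and 8 for F in MI against IR day 3 (1 and 5), and 3 for F in MI against sham (13). RLE scaling gave 4 for M against E (8), 14 for neutrophil-like against M, 12, 1 and 2 for the contrasts of C, and 2 and 3 for F in MI against IR day 3 and sham. It split the calls 3 higher and 15 lower for M against C, 10 and 2 for C in MI against sham, and 2 and 0 for C in MI against IR day 3. Without Rn45s, E against C gave 26, E against F (7) 12 and M in MI against IR day 3 gave 3. Sums of at least 10 wells gave 27 for E against C, 9 for M against F, 16 for neutrophil-like cells, 1 for C at IR day 1, 3 for M at IR day 3 against IR day 1 (7), and 5 and 23 for M and F in MI against IR day 3. With copied wells kept, the counts were 22 (M against C), 28 (E against C), 5 (M against E), 11 (M against F), 14 (E against F), 7 (M in MI against IR day 3) and 13 (E in MI against sham, 6). With members in the clustering they were 13 for E against F, 1 for C at IR day 1, and 2 and 3 for M and F in MI against IR day 3. Without the low-count filter they were 7 for F against C, 4 for M against E, 3 and 0 for M at IR day 3 and in MI, 0 for E at IR day 1 (3), 9 for F in MI against IR day 3 and 10 at IR day 1 (18). Without the plate block, E against C gave 11. Wells of 2000 UMIs gave 8 for M against F, 4 for C in MI and 4 for M in MI, and left only 1 plate for C at IR day 1.

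The replicate numbers did not pair the plates; with the replicate number as a block, counts were 0 for C, M and F in MI against IR day 3, 3 for M at IR day 3, 1 for E and 3 for F at IR day 1, and 2 for F in MI against sham. Plates of groups with more than 5 plates were left out, as an alternative chosen after seeing the data, for M and E between groups, and not for the comparisons of classes. Leaving out 1 plate at a time gave 12 to 21 (M against C), 20 to 27 (E against C), 10 to 15 (F against C), 5 to 17 (M against E), 4 to 12 (M against F), 10 to 15 (E against F) and 29 to 32 (neutrophil-like against M). For C it gave 1 to 6 in MI against sham, 0 to 0 at IR day 3 and IR day 14, 2 to 2 at IR day 1 and 0 to 2 in MI against IR day 3. For M it gave 5 to 8 at IR day 3 and 0 to 5 in MI, for E 0 to 3 at IR day 1, 4 to 7 in MI and 0 to 0 at IR day 14, and for F 2 to 9 in MI against IR day 3, 7 to 21 at IR day 1 and 10 to 17 in MI against sham. The tests of differences between classes gave 0 to 0 for F and 0 to 2 for C.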

Other observations

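Wells outside the 5 classes that were compared also held proteasome transcripts. The 21 mural-like wells had an immune share of 18.5% (15.7 to 21.6), between the fibroblast-like and endothelial-like values. The 673 wells without a name had 37.3% (35.3 to 39.2) and were not alike: a cluster of 170 wells had a summed level of 1693 CPM and an immune share of 40.8%, and a cluster of 185 wells, mainly from MI, 4745 CPM and 17.9% with Psme3, the nuclear activator, at 198 CPM. A cluster of 12 wells had 1367 CPM in all, of which Psme3 made up 863 CPM.

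Within classes, clusters differed in the same measures. The macrophage-like cluster with the highest immune share had 44.7% (42.0 to 47.4) and Psmb8 at 353 CPM. Of the endothelial-like clusters, 1 had 18.3% and Psme4 at 183 CPM, and a cardiomyocyte-like cluster with a summed level of 5301 CPM had 7.02% and Psme4 at 313 CPM.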
